A study of Mus musculus with 3 samples.

Results

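This account covers 9 adhesion genes of macrophages, chosen by gene symbol: the immunoglobulin-family ligands Icam1 and Vcam1, the hyaluronan receptor Cd44, and the integrin chains Itgam, Itgax, Itgal, Itga4, Itgav and Itgb2. All 9 were found among the 55536 mouse genes of the tables, and all 9 belong to the 46615 genes averaging 300 nt or more, over which levels were computed. The series holds 1 group of 3 RNA-seq libraries, made from ribosome-depleted RNA of the chromatin fraction of C57BL/6J bone marrow-derived macrophages. The cells are primary cells that had received Lipid A, the TLR4-activating part of lipopolysaccharide, at 100 ng/ml for 25 min. The labels give sex and age as not collected, and they list 1 donor identifier for all 3 libraries. The labels also number the libraries as replicates 1 to 3, and whether they are separate animals or cultures is not given. The scatter between these 3 samples can thus not be assigned to technical or biological differences. The p-values below come from a line fitted to 1 library per RNA amount, so they measure no spread between replicates at an amount. No unstimulated sample was analysed here, so the levels do not show induction by Lipid A. The labelled difference between the libraries is the amount of RNA used, with replicate 2 made from 250 ng, replicate 3 from 500 ng and replicate 1 from 1000 ng.

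Integrins are pairs of an alpha and a beta chain that span the membrane and bind matrix proteins or receptors on other cells. In leukocytes the chain encoded by Itgb2 (CD18) pairs with the chains of Itgal (LFA-1), Itgam (Mac-1, complement receptor) and Itgax, and these receptors bind ICAM-1, complement fragments and fibrinogen. The chain of Itga4 pairs with that of Itgb1 to bind VCAM-1 and fibronectin, the chain of Itgav pairs with several beta chains to bind vitronectin and latent TGF-beta, and CD44 binds hyaluronan and links to the cortex through ERM proteins. RNA of the chromatin fraction is rich in transcripts that are still being made and spliced, so such RNA holds many intronic sequences.

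Total expected counts were 19230763, 19207049 and 13525994 at 250, 500 and 1000 ng. Genes of a ribosomal DNA locus took 27.1%, 23.1% and 8.46% of the counts in the same order, so they moved with the RNA amount. A level in TPM (abundance corrected for gene length and sequencing depth) rises at 1000 ng when that locus shrinks, and its values without the locus are given for some genes. Levels in CPM (counts scaled to library size) rise likewise, and they are given with the locus only. The macrophage label was checked on 10 markers, all of which averaged 1 TPM or more, and their summed level was 1819, 2202 and 2617 TPM at 250, 500 and 1000 ng. None of the 10 was called with RNA amount in the test described below. Among markers of other cells, 2 of 10 neutrophil, 2 of 8 dendritic cell and 1 of 7 endothelial genes averaged 1 TPM or more. The same held for 0 of 8 T and NK cell and 0 of 8 stromal genes. Cd3e, Cd3d, Cd3g, Cldn5 and Emcn had 0 counts in all 3 libraries. The endothelial gene above 1 TPM was Kdr, at 5.23 TPM on average from 155, 262 and 200 counts. The summed level was 4.92, 2.94 and 4.83 TPM for the neutrophil list and 10.9, 8.33 and 10.01 TPM for the dendritic cell list. It was 3.95, 6.19 and 8.76 TPM for the endothelial list and 1.71, 4.21 and 0.0444 TPM for the stromal list.

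Promoter windows were available for 6 of the 9 genes from RefSeq (build GRCm38.p6, 250 bases before to 50 bases after the RefSeq gene start). They were scanned on both strands for 3 motifs: GGAANNTCC, a form of the NF-kB site, TGANTCA, the AP-1 site, and GAGGAA, the core bound by PU.1, a macrophage transcription factor. The 250 upstream bases of 3 genes are shown because Icam1 alone of the 6 held GGAANNTCC, Itgax alone held TGANTCA, and Itgam held the most matches to GAGGAA, with motif matches in capitals.
Icam1 (chr9:21015690-21015939, + strand): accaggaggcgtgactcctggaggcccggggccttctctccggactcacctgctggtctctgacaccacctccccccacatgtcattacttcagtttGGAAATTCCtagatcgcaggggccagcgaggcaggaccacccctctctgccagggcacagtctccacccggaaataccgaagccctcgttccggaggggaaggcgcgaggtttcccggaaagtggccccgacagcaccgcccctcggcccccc
Itgam (chr7:128062390-128062639, + strand): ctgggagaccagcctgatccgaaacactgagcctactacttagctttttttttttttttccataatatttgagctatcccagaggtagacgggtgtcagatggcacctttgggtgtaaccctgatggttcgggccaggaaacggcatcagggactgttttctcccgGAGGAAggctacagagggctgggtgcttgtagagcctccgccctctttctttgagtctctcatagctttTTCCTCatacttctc
Itgax (chr7:128129300-128129549, + strand): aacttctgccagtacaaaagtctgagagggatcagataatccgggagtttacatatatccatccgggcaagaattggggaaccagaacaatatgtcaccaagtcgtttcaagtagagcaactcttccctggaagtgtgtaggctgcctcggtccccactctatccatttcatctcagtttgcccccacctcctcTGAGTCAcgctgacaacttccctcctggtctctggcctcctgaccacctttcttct
The capitals in Icam1 mark GGAAATTCC, whose first base lies at -153 from the start and which matches on both strands. In Itgam they mark GAGGAA at -84 and its reverse complement TTCCTC at -15. A further match to GAGGAA in Itgam lies 33 bases after the start and is not shown. In Itgax they mark TGAGTCA at -56. Over all 32851 RefSeq promoter windows of this length, GGAANNTCC was found in 4.26%, TGANTCA in 7.81% and GAGGAA in 28.3%. GAGGAA was found in 3 of the 6 windows, those of Itgav, Cd44 and Itgam. The window of Itga4 held none of the 3 motifs. No matches of different motifs overlapped. These matches describe letters in a window and say nothing of binding.

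Icam1 encodes the endothelial and macrophage ligand of the integrins that contain the Itgb2 chain. By the level of the whole gene, Icam1 was the most abundant of the 9 genes. It reached 196, 445 and 1083 TPM in the libraries of 250, 500 and 1000 ng (574.7 ± 457 TPM, SD, n = 3), from 3684, 7918 and 13253 expected counts. By mean level it stood at rank 117 of the 46615 genes. Its coding transcript held 24.1%, 22.7% and 34.2% of its TPM at 250, 500 and 1000 ng. The first place and the rank are thus of the whole-gene level and not of coding RNA. The 3 whole-gene levels of Icam1 lie far apart, and the level at each amount was more than 2 times that at the amount below it. Icam1 (mm10, chromosome 9, 21015985 to 21028817, + strand) has 7 exons. Vcam1, the ligand of the integrin that contains the Itga4 chain, was far lower at 4.11, 6.07 and 28.2 TPM (12.8 ± 13.4 TPM, SD, n = 3), from 117, 168 and 498 counts. Its library of 1000 ng stood apart from the other two. The ratio of the Icam1 to the Vcam1 level was 47.8, 73.4 and 38.4 at 250, 500 and 1000 ng, and 13.2, 30.0 and 26.8 in the kallisto-type table. Icam1 was thus far above Vcam1 in every library, by a factor that differed between the tables. Without the library of 1000 ng the mean level was 320.7 TPM for Icam1 and 5.09 TPM for Vcam1.

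Itgb2, the shared beta chain of the leukocyte integrins, was the steadiest of the 9 genes. Its level was 88.4, 84.9 and 86.8 TPM at 250, 500 and 1000 ng (86.7 ± 1.72 TPM, SD, n = 3), and its highest library was 1.04 times its lowest. Without the ribosomal DNA locus its level was 121, 111 and 94.2 TPM and the highest library was 1.29 times the lowest, which was still the smallest such ratio of the 9 genes, beside 1.32 for Itgam. Of its alpha chains, Itgam, the chain of Mac-1, was the most abundant at 46.4, 36.8 and 45.1 TPM (42.8 ± 5.17 TPM, SD, n = 3). Itgax, known as the dendritic cell and alveolar macrophage chain CD11c, reached 6.69, 2.95 and 9.49 TPM (6.38 ± 3.28 TPM, SD, n = 3). Itgal, the alpha chain of LFA-1, was the lowest of the 9 genes by mean TPM at 2.11, 2.47 and 7.44 TPM (4.004 ± 2.98 TPM, SD, n = 3), and 2.29 TPM without the library of 1000 ng. The kallisto-type table gave it 8.90 TPM on average, and there, as in counts without gene length, Itgax was the lowest. The counts behind Itgax were 160, 87 and 77, so its highest TPM came from its lowest count, and its order across the libraries depends on the effective length in the deposited tables. Itgad, the fourth alpha chain that pairs with Itgb2, had 7.05, 5 and 4 counts and averaged 0.540 TPM, but 3.90 TPM in the kallisto-type table. Itgam made up a fraction of 0.840, 0.872 and 0.727 of the summed level of Itgam, Itgal and Itgax (0.813 ± 0.0762, SD, n = 3). In the kallisto-type table this fraction was 0.704 ± 0.0658 (SD, n = 3). The 3 chains together stood at 0.624, 0.497 and 0.714 of the Itgb2 level (0.612 ± 0.109, SD, n = 3), below Itgb2 in each library. In counts without gene length the ratio was 0.952, 0.747 and 1.06, so it turned at 1000 ng. The deposited kallisto-type table, a second quantification of the same libraries, gave 0.795 ± 0.139 for this ratio.

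By the level of the whole gene, Itga4, the alpha chain of the VCAM-1 receptor, was the most abundant integrin chain among the 9 genes. Its level was 168, 294 and 486 TPM at 250, 500 and 1000 ng (316 ± 160 TPM, SD, n = 3), from 5581, 8649 and 9775 counts, and it stood at rank 289 of all genes. Its coding transcript held 22.7%, 19.6% and 19.8% of its TPM, where the coding transcripts of Itgb2 held 84.9%, 89.4% and 80.0%. The rank and the ratios to Itgb1 below are thus of whole-gene levels and not of coding RNA. The level of Itga4 was 2.29, 4.35 and 3.88 times that of its partner Itgb1 at 250, 500 and 1000 ng. In the kallisto-type table this ratio was 0.995, 2.23 and 2.15, so Itga4 was not above Itgb1 at 250 ng there. Itgb7, its other partner, averaged 1.95 TPM. Itgav, the alpha chain of the vitronectin receptors, reached 53.2, 61.2 and 143.8 TPM (86.1 ± 50.2 TPM, SD, n = 3), with the library of 1000 ng above the other two. Without that library its mean was 57.2 TPM. Of its beta partners Itgb1 averaged 88.7 ± 31.8 TPM, Itgb5 35.0 ± 3.27 TPM and Itgb3 8.39 ± 1.53 TPM (SD, n = 3 each). Cd44, the hyaluronan receptor, reached 125, 95.4 and 183 TPM (135 ± 44.5 TPM, SD, n = 3), and its lowest library was the one of 500 ng.

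By mean TPM of the whole gene the 9 genes ran in the order Icam1, Itga4, Cd44, Itgb2, Itgav, Itgam, Vcam1, Itgax and Itgal. Coding transcripts held on average 33.3% of the TPM of Cd44 and 23.6% of that of Itgav, so this is not an order of coding RNA. The libraries did not overlap between Cd44 and Itgb2, between Itgav and Itgam, or between Itgam and Vcam1. The other 5 neighbouring pairs overlapped in their ranges. Of these, Icam1 was above Itga4, Itga4 above Cd44 and Itgax above Itgal in each of the 3 libraries, while Itgb2 was above Itgav, and Vcam1 above Itgax, in 2 of 3. In mm10, Itga4 lies on chromosome 2 from 79255426 to 79333123 and Itgav from 83724397 to 83806916, both on the + strand, and Cd44 on the same chromosome from 102811141 to 102901665 on the - strand. Itgal (127296260 to 127335138), Itgam (128062640 to 128118491) and Itgax (128129547 to 128150657) lie on chromosome 7, all on the + strand. Vcam1 lies on chromosome 3 from 116109949 to 116129688 on the - strand, and Itgb2 on chromosome 10 from 77530252 to 77565708 on the + strand. The kallisto-type table exchanged the places of Itgb2 and Itgav and of Itgax and Itgal.

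**Figure D1:**
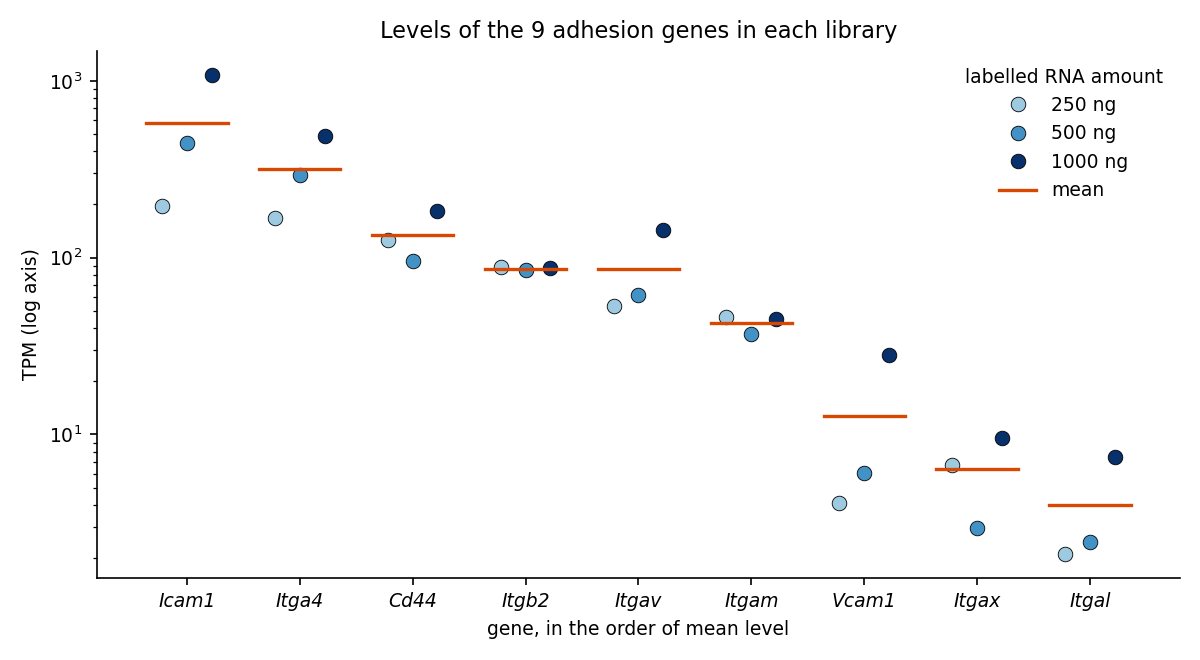
Level of each of the 9 genes in TPM on a log axis, with 1 point per library coloured by labelled RNA amount and a line at the mean of the 3 libraries. Icam1 spans 196 to 1083 TPM with amount, while the 3 points of Itgb2 lie between 84.9 and 88.4 TPM.

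Because the RNA amount is the labelled difference between libraries, the change with amount was estimated for every gene, as the log2 change per doubling of the amount in edgeR's quasi-likelihood test with Benjamini-Hochberg adjustment over all 13993 genes tested. Of the 9 genes, 4 were called higher with amount (Vcam1, Icam1, Itgal and Itga4) and 0 lower, at an adjusted p under 0.05. Over all genes tested, 4.52% were called higher and 2.85% lower, 7.38% in all. The median slope of the 9 genes was 0.32, against -0.01 over all genes tested, and 6 of the 9 slopes were positive. DESeq2 called 3 of the 9 higher and 0 lower, where it called 2.72% of all genes (1.97% higher and 0.743% lower). With the counts of the kallisto-type table edgeR called the same 4 higher and 0 lower. There it called 1.68% of a larger set of 21997 genes tested (1.19% higher and 0.486% lower). Each amount was used for 1 library only, so amount, library and the share of the ribosomal DNA locus cannot be told apart.

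Vcam1 had the steepest slope, 1.20 (SE 0.18, edgeR quasi-likelihood adjusted p = 2.96e-05). This slope rested on the library of 1000 ng: between the other two libraries it was 0.47, a value with no test. In kallisto-type counts it was 0.65 (edgeR adjusted p = 0.0492). Icam1 followed with a slope of 1.06 (SE 0.13, edgeR adjusted p = 2.18e-06), and for Icam1 the slope was 1.06 whichever of the 3 libraries was left out. Its level at 1000 ng was 5.52 times that at 250 ng, or 4.36 times without the ribosomal DNA locus. Itgal had a slope of 0.70 (SE 0.20, edgeR adjusted p = 0.0298), was not called by DESeq2 (adjusted p = 0.143), and had a slope of 0.09 between the libraries of 250 and 500 ng alone. Itga4 had a slope of 0.54 (SE 0.13, edgeR adjusted p = 0.00858), and leaving out a library moved it between 0.49 and 0.58. Icam1 and Itga4 are therefore the pair among the 4 whose slope stayed within 1.5 times its value whichever library was left out.

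The other 5 genes were not called, which does not show that they did not change. Itgav had a slope of 0.32 (SE 0.13, edgeR adjusted p = 0.135), although its TPM at 1000 ng was 2.70 times that at 250 ng, or 2.14 times without the ribosomal DNA locus. Both ratios also depend on the effective length of Itgav in each library. Without gene length Itgav held 74.5, 73.5 and 137.9 CPM at 250, 500 and 1000 ng. Cd44 had a slope of 0.08 and Itgam one of -0.17. Itgb2 had a slope of -0.18 (SE 0.13, edgeR adjusted p = 0.417). Leaving out a library moved the Itgb2 slope between -0.24 and -0.13, and the Itgam slope between -0.48 and 0.15. Itgax had the lowest slope, -0.41, with an SE of 0.21 (edgeR adjusted p = 0.242). In bulk RNA a change of this kind cannot separate a different number of cells that express a gene from a different amount of RNA per cell.

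**Figure D2:**
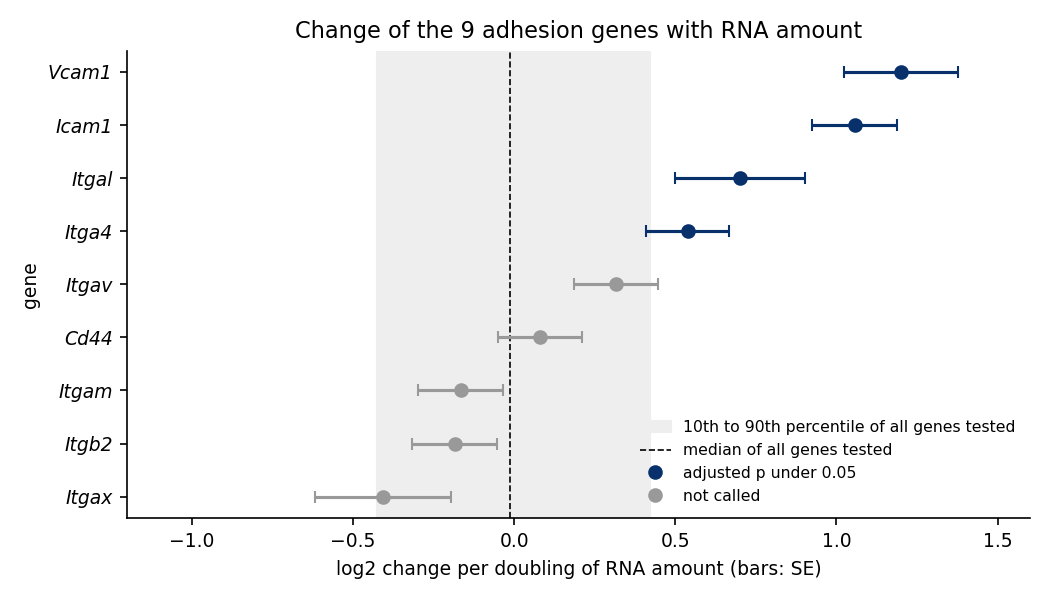
Log2 change per doubling of RNA amount for the 9 genes with its standard error, beside the median and the 10th to 90th percentile of all genes tested (-0.43 to 0.42). Vcam1, Icam1, Itgal and Itga4, in dark blue, passed the adjusted threshold and lie right of the grey band, and the other 5 lie within it.

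The transcript tables split each gene over its annotated transcripts, and several of the 9 genes carried much of their signal on transcripts that run into introns. Icam1 has 2 annotated transcripts, the protein-coding Icam1-201 and the retained-intron transcript Icam1-202. Icam1-202 holds exon 1 and exon 2 and then runs 1825 nt into intron 2, which is 6364 nt long, so 82.8% of its 2203 nt are intronic. It carried 72.9%, 74.5% and 62.2% of the Icam1 counts at 250, 500 and 1000 ng (69.9 ± 6.65%, SD, n = 3), and 56.2% on average in the kallisto-type table. In CPM (counts scaled to library size), Icam1-202 reached 142, 312 and 626, and Icam1-201 reached 52.7, 107 and 379.9, so both transcripts were higher in each library of a larger amount. Vcam1-204, a single stretch of 4088 nt that is 92.1% intronic, carried 51.1 ± 6.64% of the Vcam1 counts (SD, n = 3), with 64.0% in the kallisto-type table. Vcam1-203 is annotated as protein-coding but is 59.8% intronic, with 1514 nt in intron 4 of Vcam1-201. It carried 30.9 ± 4.14% of the Vcam1 counts and Vcam1-201 carried 18.1 ± 2.52% (SD, n = 3 each), with 16.7% and 12.0% in the kallisto-type table. Cd44-209, which runs 1122 nt into intron 5, carried 48.8 ± 3.65% of the Cd44 counts (SD, n = 3), with 41.5% in the kallisto-type table. Both quantifications divide reads between overlapping transcripts by a model, and in these tables reads of unspliced RNA in an intron cannot be told apart from reads of such transcripts.

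Itga4 has no transcript annotated as a retained intron, but 4 of its 5 transcripts are processed transcripts without a coding sequence, and they carried 43.5 ± 2.83% of its counts and 79.3 ± 1.75% of its TPM (SD, n = 3). Of these, Itga4-205 ends 2.43 kb from the gene start and is 76.1% intronic, Itga4-204 ends at 18.6 kb, and Itga4-202 and Itga4-203 end near 37.6 and 37.8 kb, about midway along the gene. The coding transcript Itga4-201 reached 176, 253 and 405 CPM at 250, 500 and 1000 ng, and the other 4 together reached 119, 204 and 338. Coding and other transcripts of Itga4 were thus both higher at the larger amounts, by 2.30 and 2.85 times between 250 and 1000 ng. These ratios are of CPM that include the ribosomal DNA locus.

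Itgav differed between its kinds of transcript. Its protein-coding transcripts held 46.7, 43.0 and 46.3 CPM at 250, 500 and 1000 ng, a ratio of 0.992 between 1000 and 250 ng. Its other 4 transcripts held 27.8, 30.5 and 91.6 CPM, a ratio of 3.30. As these CPM include the ribosomal DNA locus, which shrank at 1000 ng, the ratios do not show that coding RNA stayed level. The higher Itgav level at 1000 ng lay in transcripts that end within the first 32.4 kb of the gene, and above all in Itgav-209, which joins exons 1 and 2 to 2186 nt of intron 2 and held 15.2, 18.3 and 62.4 CPM. The kallisto-type table gave ratios of 1.15 for the coding and 3.43 for the other transcripts. No test was made of this split, which was looked at after the slopes were known.

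**Figure D3:**
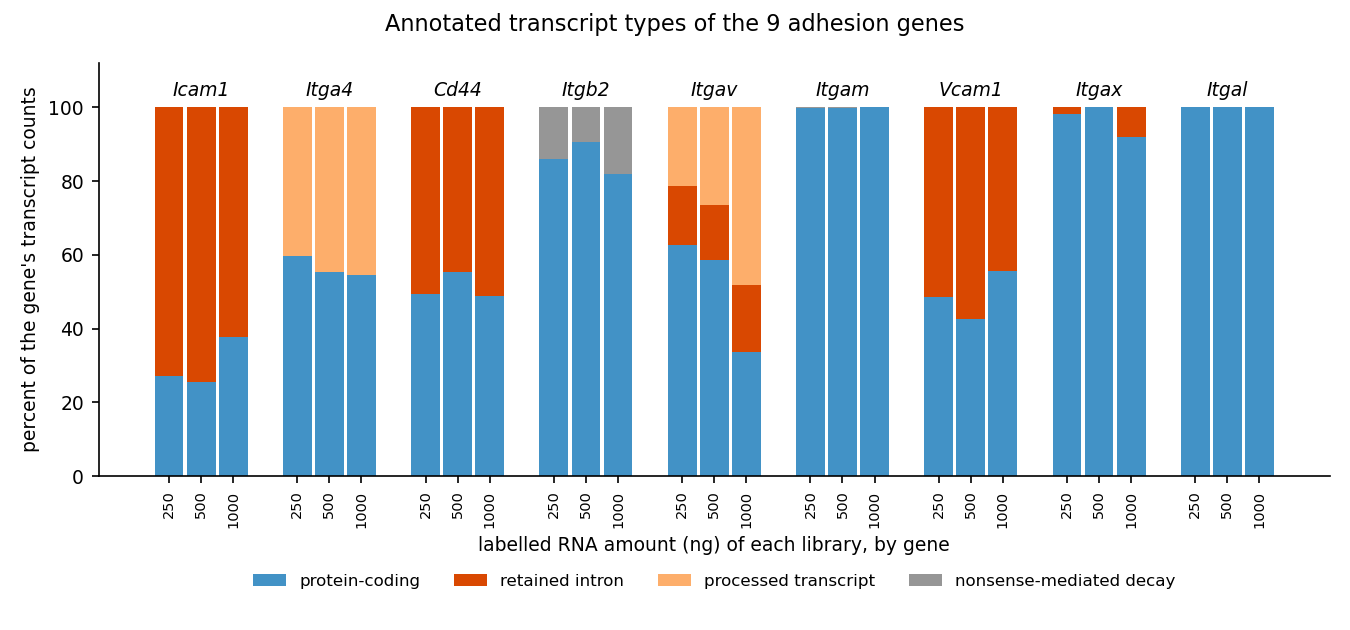
Percent of the RSEM transcript counts of each gene on protein-coding, retained-intron, processed and nonsense-mediated decay transcripts, with 1 bar per library from 250 to 1000 ng. Retained introns hold most of Icam1 in every library, and the protein-coding share of Itgav is 62.7% at 250 ng, 58.5% at 500 ng and 33.6% at 1000 ng.

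Transcripts annotated as protein-coding carried most of the counts of Itgam, Itgal and Itgax. The share was 99.9 ± 0.118% for Itgam and 96.7 ± 4.28% for Itgax (SD, n = 3 each). As a share of TPM, which weighs short transcripts more, the Itgax coding transcripts held 83.8%, 100% and 39.4% at 250, 500 and 1000 ng. All Itgal counts of the RSEM table fell on protein-coding transcripts, with 95.7% in the kallisto-type table. The 2 tables disagreed on which Itgal transcript leads: Itgal-201 carried 70.4%, 63.9% and 7.63% of the RSEM counts, and the kallisto-type table put Itgal-204 first at 57.5% on average. Itgal-202, with 5222 nt against 5195 nt in Itgal-201 and 31 exons in each, carried 0%, 0% and 34.7% of the RSEM counts. The low share of Itgal-201 at 1000 ng is thus in part a split between 2 transcripts of nearly the same length. Itgal-204 is annotated as protein-coding but runs 1052 nt into intron 30 of Itgal-202, and it carried 29.6%, 36.1% and 57.7% of the RSEM counts at 250, 500 and 1000 ng. Itgam-205, also protein-coding, runs 244 nt into the last intron of Itgam-201 and carried 34.6 ± 3.65% of the Itgam counts (SD, n = 3). Itgb2 had 13.8 ± 4.35% of its counts on transcripts annotated for nonsense-mediated decay (SD, n = 3). The retained-intron share varied widely over the 5 genes with such a transcript, which ran from 3.35 ± 4.28% in Itgax and 16.4 ± 1.73% in Itgav (SD, n = 3 each) to the value of Icam1 above.

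**Figure D4:**
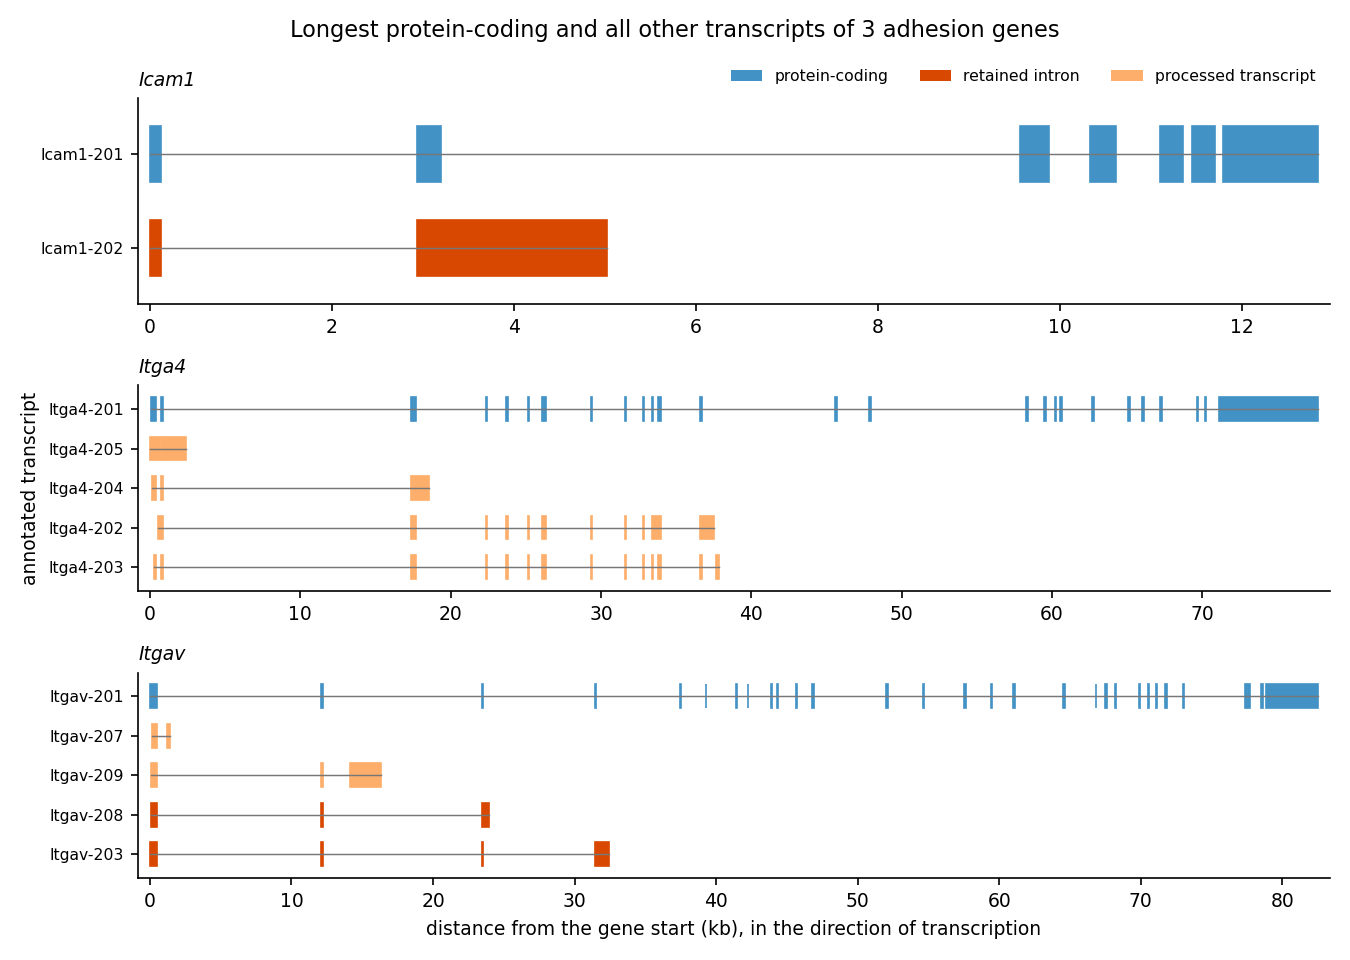
Exons (boxes) of the longest protein-coding transcript and of all other transcripts not annotated as protein-coding in Icam1, Itga4 and Itgav, against the distance in kb from the gene start in the direction of transcription. Icam1-202 ends at 5.02 kb, and the other transcripts of Itga4 and Itgav end at or before 37.8 and 32.4 kb.

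Genes that overlap the 9 may share some of these reads. Gm47079, an antisense gene, overlaps the last 511 nt of Icam1 and continues past its end. It held 198, 494 and 866 counts, which is 5.38%, 6.24% and 6.53% of the Icam1 counts at 250, 500 and 1000 ng, and its slope was 1.20 (SE 0.15), close to that of Icam1. Icam4, which begins 556 bp past the end of Icam1 and lies within the span of Gm47079, had 0 counts, and Icam5 had 1, 5 and 2. In Itgav, Gm13684 and the pseudogene Dnmt3l-ps1 lie on the opposite strand. Gm13684 shares 634 nt with Itgav exons and Dnmt3l-ps1 shares 0 nt with them. Gm13684 had 150, 182 and 384 counts with a slope of 0.82 (SE 0.18), and Dnmt3l-ps1 had 78, 102 and 238 counts with a slope of 0.96 (SE 0.20), so both were higher in each library of a larger amount, as were the other transcripts of Itgav, and both passed the adjusted threshold. Without the library of 1000 ng their slopes were 0.23 and 0.34. Cerkl, on the opposite strand to Itga4, shares 1124 nt with Itga4 exons. It had 35.8, 39.2 and 35.5 counts at 250, 500 and 1000 ng with a slope of 0.13 (SE 0.26), and was not called. No source used here says whether reads were counted by strand, so reads of these pairs cannot be told apart. Gm49368, an annotated gene on the same strand that shares 73.8% of the sequence of Itgam-201, had 5.89, 9 and 8.63 counts, and the split between it and Itgam is uncertain.

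Of the other genes of the pathway, more were called lower than higher with RNA amount. From 6 lists of 95 further adhesion genes, 56 averaged 1 TPM or more, 10 had 0 counts in all libraries and 58 were tested. Of the tested genes 2 were higher with RNA amount, Rap1b and Spp1, and 9 were lower, against the shares of 4.52% and 2.85% over all genes tested. No difference between the 9 genes and these lists was tested.

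Among 20 other integrin chains, 12 were tested, 0 were higher and 2 were lower. Itga5, the alpha chain of the fibronectin receptor, was the highest at 235.6 ± 73.9 TPM, followed by Itgb1 and by Itga6, a laminin receptor chain, at 52.9 ± 13.8 TPM (SD, n = 3 each). Itga9 fell with a slope of -0.45 (edgeR adjusted p = 0.0491) and Itga2b, the platelet chain, with one of -1.05 (edgeR adjusted p = 0.00706), which was -0.54 without the library of 250 ng. Of 13 other adhesion receptors of the immunoglobulin family, 5 were tested and 0 were called. Sirpa, the receptor for the antiphagocytic signal of Cd47, was higher than any of the 9 genes at 1575 ± 584 TPM, Alcam reached 248 ± 7.95 TPM, and Cd47 68.9 ± 20.0 TPM (SD, n = 3 each). Icam2 averaged 0.267 TPM, so of the ICAM genes measured here only Icam1 passed 1 TPM. Of 7 selectins and ligands, 3 were tested and 0 were called, and Glg1, Selplg and Sele were the highest at 31.9, 8.85 and 1.18 TPM.

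Among 28 activators and linkers, which join integrin tails to actin and switch integrins to their binding state, 24 were tested, 1 was higher and 4 were lower. Syk, a kinase downstream of integrins and Fc receptors, was the highest at 593 ± 138 TPM and was not called. Tln1, which encodes talin, the activator that binds integrin tails, had 410.1, 279.5 and 302 TPM at 250, 500 and 1000 ng (330.5 ± 69.8 TPM, SD, n = 3) and fell with a slope of -0.56 (SE 0.13, edgeR adjusted p = 0.00680). Fermt3, the leukocyte kindlin, had a slope of -0.37 (edgeR adjusted p = 0.0623) at 243 ± 35.0 TPM. Rap1b, a small GTPase that recruits talin, had 62.9, 57.3 and 183 TPM and rose with a slope of 0.65 (SE 0.14, edgeR adjusted p = 0.00324), which was -0.12 without the library of 1000 ng. The Rap activators Rapgef1 and Rapgef3 and the focal adhesion protein Zyx had slopes of -0.50, -0.61 and -0.57 and were called lower. Without the library of 1000 ng the slope was -0.31 for Rapgef1 and -0.02 for Rapgef3, and without that of 250 ng it was 0.13 for Zyx.

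Of 11 genes for CD44 partners and hyaluronan enzymes, 8 were tested and 0 were called. Msn, which encodes the ERM protein moesin, led at 96.6 ± 23.3 TPM, ahead of the hyaluronidase Hyal1 at 32.2 ± 6.72 TPM and Rdx, radixin, at 21.4 ± 5.47 TPM (SD, n = 3 each). Of 16 matrix and soluble ligands, 6 were tested, 1 was higher and 3 were lower. Thbs1, thrombospondin, had 467, 506 and 269 TPM (414 ± 127 TPM, SD, n = 3) and fell with a slope of -0.59 (edgeR adjusted p = 0.0184), as did Vwf and Mfge8 with slopes of -0.48 and -0.50. Spp1, osteopontin, a ligand of integrins with the Itgav chain, rose with a slope of 0.58 (SE 0.13, edgeR adjusted p = 0.00420) at 230, 277 and 657 TPM. Without the library of 1000 ng the slope was -0.02 for Thbs1, -0.17 for Vwf and 0.15 for Spp1. Tgfb1, whose latent product is bound by such integrins, averaged 241 ± 42.3 TPM (SD, n = 3) and was not called.

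**Figure D5:**
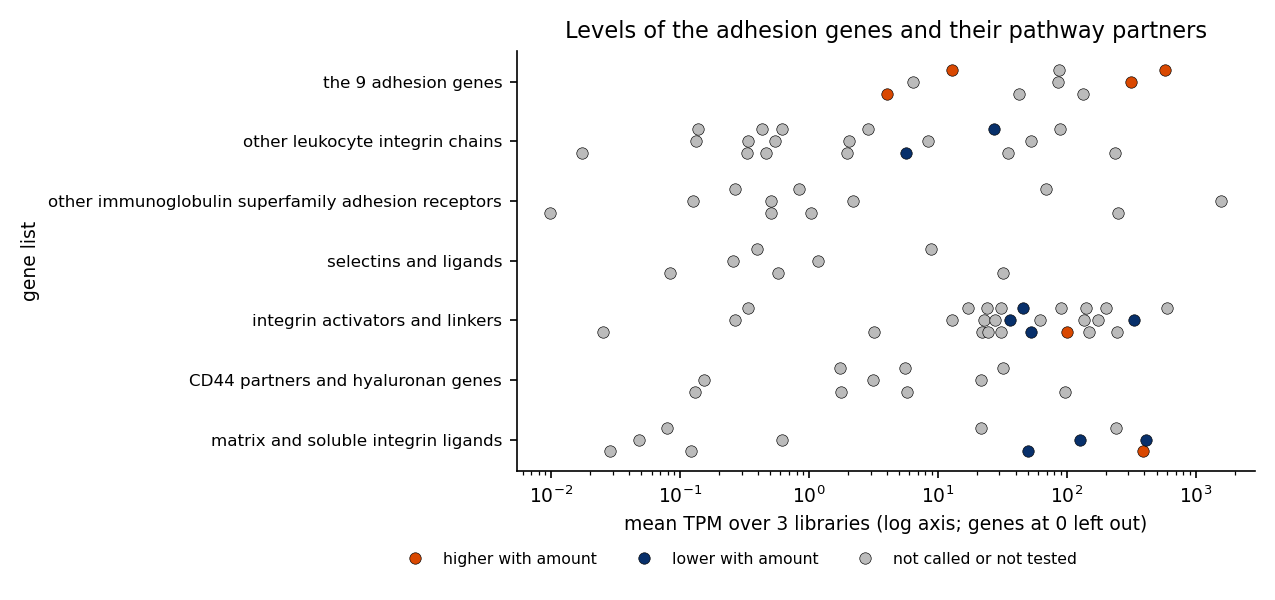
Mean TPM over the 3 libraries of the 9 genes and of 6 lists of other adhesion genes, on a log axis, with 1 point per gene coloured by its call with RNA amount. The 9 genes hold 4 of the 6 orange points and none of the 9 dark blue ones, and genes at 0 TPM are left out.

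The gene whose level was nearest to that of Icam1 over the 3 libraries, by the root mean square difference of log2(TPM + 1), was Bcl2l11, with 192, 388 and 903 TPM and a difference of 0.19. Ncf1, a subunit of the phagocyte oxidase, was next with 285, 524 and 1074 TPM and a difference of 0.34. For Vcam1, whose level varied most between libraries, each gene was centred on its own mean, among genes averaging 1 TPM or more. The nearest was Cybb, another phagocyte oxidase subunit, with 153, 202 and 832 TPM and a difference of 0.04. With 3 libraries such likeness describes these samples only.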

How the data were processed

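Chromatin-fraction total RNA of 3 libraries of 1 group was measured, with group, replicate and RNA amount as the labels give them. The authors deposited, per library, gene and transcript tables with expected counts and TPM under RSEM's column names, and a transcript table with estimated counts and TPM under kallisto's column names, per the file headers. Assembly mm10 and annotation M21 are named in the deposited readme files. Aligner, versions, strand setting and filters were not given in the sources used here. Names, exons and transcript types came from GENCODE M21.

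TPM were recomputed from the deposited expected counts and effective lengths over genes of at least 300 nt, which leaves out small RNAs, tRNA and spike-in entries. CPM (counts scaled to library size) use the same genes, the ribosomal DNA locus included, without TMM factors. A gene with no count could still hold 3 counts, that is 0.158, 0.159 and 0.228 CPM at 250, 500 and 1000 ng, counting error only. Slopes per doubling of RNA amount came from edgeR 4.0.16 (normalized by TMM, with factors 0.931, 0.964 and 1.11, filterByExpr with 1 group, quasi-likelihood F test, 1 residual degree of freedom) on expected counts rounded to whole numbers, and called at an adjusted p under 0.05. Retained-intron shares were taken for genes with at least 50 counts in every library. BLAST 2.17.0 searched longest transcripts for sequence shared with other genes (95% identity, at least 100 nt).

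The genes and lists were chosen with earlier results of these data known. By the rule for names, the 9 genes were always named, with the 3 highest of each list, the partner chains, the ICAM genes and any list gene called. The 2 protein-coding genes nearest in level to the highest and most variable of the 9 could be named too. Alternatives were the deposited TPM, genes of any length, the kallisto-type table, counts without gene length, a pseudocount of 0.1, RLE factors, DESeq2 1.42.0, no count filter, the amount on a linear scale, shares of TPM, and each replicate left out in turn. Levels without the ribosomal DNA locus, a count filter set by the design, slopes over genes of any length and slopes of list genes with a replicate left out were added after seeing the data, as were the split by coding transcripts and the overlapping genes. The motifs were chosen without a fixed list, and a looser NF-kB pattern, common in promoters of all genes, was scanned and left out. The result of 1 further marker list is not reported here.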

Additional observations from a re-analysis of the deposited data

How the results depend on the processing

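The median of the 9 mean levels, 86.1 TPM, was 30.3 TPM in the deposited TPM and also over genes of any length, since short RNAs then enter the total, and 57.2 to 87.6 TPM with 1 replicate left out. Of the 9 genes, 4 were called with RNA amount under RLE factors, no count filter, kallisto-type counts and, both chosen after seeing the data, genes of any length and the filter set by the design, 3 by DESeq2, which lost Itgal, and 5 with the amount on a linear scale, which added Itgav (adjusted p = 0.00662). No slope of the 9 genes changed sign under these settings, while without replicate 1 (1000 ng) or replicate 2 (250 ng) slopes of genes not called did. Of 13993 genes tested 1032 were called, against 994 under RLE factors, 380 by DESeq2 and 3042 on the linear scale. The added call of Itgav thus came where far more of all genes were called. Without the count filter 1156 of 23726 genes were called, over genes of any length 1101 of 14108, and with the filter set by the design 741 of 14944. In kallisto-type counts 369 of 21997 were called, and the cause of these differences was not tested. The median retained-intron share of 48.8% was 41.1% as a share of TPM and 41.5% in kallisto-type counts, and 47.6% to 48.0% with a replicate left out. The median share of the leading transcript, 54.7%, was 54.9% to 59.8% with a replicate left out. The ratio of the 3 alpha chains to Itgb2, 0.612, was 0.795 in the kallisto-type table, 0.921 in counts without gene length, and 0.561 to 0.669 with a replicate left out. No paired analysis was possible because the series has 1 group. Depth limits Itgax and Itgal most, with 77 and 92 counts in their lowest libraries.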
